A study of Mus musculus with 6 samples.

Results

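The 10 genes described here encode the proteins by which leukocytes stop on the vessel wall and leave the blood: the endothelial ligands Vcam1, Icam1 and Icam2, the selectins Sele and Selp, and the leukocyte integrin subunits Itga4, Itgb1, Itgb2, Itgal and Itgam. They were chosen by gene symbol, with earlier results of these data known. All 10 were among the 16887 genes named on the oligonucleotide array and 9 were among the 6734 named on the cDNA array, which named no feature Sele, and each had 1 feature per array type. The livers came from female C57BL/6 mice, 7 weeks old by the labels and kept on low-fat chow, which received poloxamer P-407, a surfactant copolymer used to raise blood lipids, at 0.5 g/kg by intraperitoneal injection every 3 days for 96 days. Control mice received normal saline on the same schedule, and all groups share the strain, sex, diet and injection. RNA of 12 treated mice formed 3 pools, and each pool was labelled with Cy5 and read against 1 pool of 4 control livers in Cy3, once on each array type. A pool averages its mice, so the 3 values of a gene show the spread between pools and not between animals, and the control has 1 sample with no spread of its own.

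Recruitment runs in steps. Selectins on the endothelium (E-selectin from Sele, P-selectin from Selp, which platelets also carry) let leukocytes roll by binding sialylated sugars, then chemokine signals activate integrins, and the integrins hold the cell to members of the immunoglobulin family. The integrin VLA-4 (Itga4 with Itgb1) binds VCAM-1, while LFA-1 (Itgal with Itgb2) and Mac-1 (Itgam with Itgb2) bind ICAM-1, and LFA-1 is the main receptor of ICAM-2. Inflammatory cytokines are known to induce Vcam1, Icam1 and Sele through NF-kB, whereas Icam2 is known as a ligand that resting endothelium carries. In the liver, leukocytes can also arrest in the narrow sinusoids with little need of selectins, and Kupffer cells and stellate cells can carry VCAM-1 and ICAM-1 as well as the endothelium.

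The stretches before the annotated starts of Icam1 and Sele, both higher on the oligonucleotide arrays, of Selp, which did not pass the test, and of Itgam, which was lower, are shown because the first 2 belong to the group of genes known to answer NF-kB. Of the 10 genes, 6 matched the RefSeq promoter table (GRCm38.p6), and each line gives the 250 bases upstream of the start on the plus strand, at chr9:21015690-21015939 for Icam1, chr1:164047984-164048233 for Sele, chr1:164115014-164115263 for Selp and chr7:128062390-128062639 for Itgam. Capitals mark matches to the letters GGANNTTCC (an NF-kB-like element), TGANTCA (AP-1), TATAAA (a core promoter element) and GAGGAA (a purine core bound by factors such as PU.1), on either strand. The motifs were chosen after the sequences were seen, and no 2 of the matches in a line overlap except the 2 strands of 1 element in Icam1.
Icam1: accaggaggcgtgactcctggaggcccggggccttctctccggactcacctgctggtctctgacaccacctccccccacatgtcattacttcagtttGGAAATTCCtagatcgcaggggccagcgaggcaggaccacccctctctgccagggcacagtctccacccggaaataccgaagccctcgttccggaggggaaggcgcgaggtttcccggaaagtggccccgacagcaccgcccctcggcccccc
Sele: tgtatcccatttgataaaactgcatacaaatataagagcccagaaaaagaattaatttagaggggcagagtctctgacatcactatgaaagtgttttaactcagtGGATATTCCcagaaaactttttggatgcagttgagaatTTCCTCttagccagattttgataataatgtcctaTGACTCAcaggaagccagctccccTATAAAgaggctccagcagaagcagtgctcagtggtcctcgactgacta
Selp: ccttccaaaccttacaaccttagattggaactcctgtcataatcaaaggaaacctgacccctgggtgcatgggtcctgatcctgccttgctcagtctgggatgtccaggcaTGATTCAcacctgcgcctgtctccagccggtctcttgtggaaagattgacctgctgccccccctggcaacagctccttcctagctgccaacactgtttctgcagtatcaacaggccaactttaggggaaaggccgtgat
Itgam: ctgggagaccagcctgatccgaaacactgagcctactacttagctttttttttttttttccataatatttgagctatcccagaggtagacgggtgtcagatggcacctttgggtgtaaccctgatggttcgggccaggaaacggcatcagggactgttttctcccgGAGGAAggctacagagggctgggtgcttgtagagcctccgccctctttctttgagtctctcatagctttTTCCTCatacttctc
The NF-kB-like letters stood 153 to 145 bases before the start of Icam1, as GGAAATTCC, and 145 to 137 bases before that of Sele, as GGATATTCC. They were present in 2 of the 6 windows and in 3.59% of 32851 upstream windows of the same length. Vcam1, Icam2, Itgb2 and Itgal had no window, so they were not searched for any of these letters. AP-1 letters were present in Sele and Selp and in 6.75% of all windows, TATAAA in Sele and in 12.4%, and the purine core in Sele, Itgb1 and Itgam and in 23.3%. The starts of Sele and Selp lie 67.0 kb apart in the selectin cluster of one chromosome.

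Values are log2 ratios of a treated pool over the control pool, after exact zeros were set to missing and each array was centred on its median, so 1 unit stands for 2-fold. The direction of the deposited ratios was not given in the sources used here and was read as Cy5 (treated) over Cy3 (control) from titles and dyes, so each higher or lower rests on that reading. The log base was not given in the sources used here, and on a natural-log scale each fold would be larger. A gene was called where limma's adjusted p was under 0.05. On the oligonucleotide arrays this call took 43.4% of 16871 genes, 22% higher and 21.4% lower, and it took 309 of 860 chemosensory receptor genes (35.9%), which belong to the nose. Of those receptors 95% lay within 0.41 of 0 in log2 ratio, and the largest called one lay 0.92 from 0, while 1 receptor that was not called had a mean of 2.08. The 3 oligonucleotide arrays correlated at 0.70 to 0.79 over all features. The cDNA arrays of pools 1 and 2 correlated at 0.66, but that of pool 3 only at 0.27 and 0.25 with them, and 25.4% to 39.5% of the features of a cDNA array were listed at 0, against 5.57% to 5.66% on the oligonucleotide arrays. Spot intensities were not used here, so the level of liver markers was not checked and signal over background is unknown.

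Which adhesion genes differed between P-407 and saline livers was asked on the oligonucleotide arrays first. Of the 10 genes 6 were called, which reads against a background of 43.4%: Vcam1, Icam1, Sele and Itgb2 rose, and Itgam and Itgb1 fell. The 4 higher members stand against 22% of all genes and the 2 lower ones against 21.4%. Vcam1 stood apart in size, at about 4-fold, while the other 5 called genes changed by 1.22-fold to 1.55-fold. The median of the 10 members was 0.01 against 0.00 for all genes. In bulk liver RNA, more cells that carry a transcript and more transcript per cell cannot be told apart. When each gene's variance was taken from its own 3 pools, 24 genes were called higher and 16 lower in all and 0 of the members (Vcam1 adjusted p = 0.0681).

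**Figure D1:**
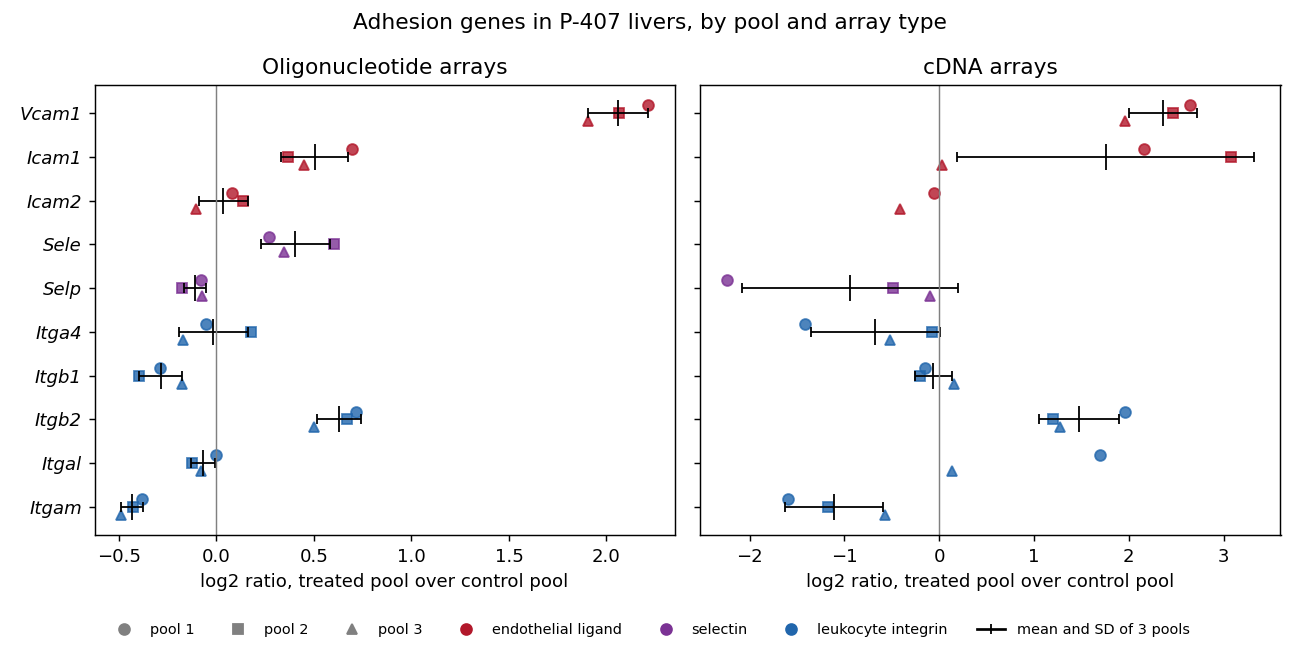
Log2 ratio of each treated pool over the control pool (horizontal axis) for the 10 adhesion genes, on oligonucleotide arrays (left) and cDNA arrays (right, with its own scale); symbols are pools, colours the roles, and bars the mean and SD of 3 pools. Vcam1 lies between 1.91 and 2.65 on all 6 arrays, and the cDNA arrays spread more widely, with Icam1 from 0.03 to 3.08.

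The ligands differed among themselves. Vcam1, which captures VLA-4-bearing monocytes and lymphocytes, had log2 ratios of 2.21, 2.07 and 1.91 in pools 1, 2 and 3. All 3 pools were high and close together, with a mean 4.17-fold over the 1 control pool (2.06 ± 0.15, SD, n = 3 pools, 95% interval 1.90 to 2.22, limma adjusted p = 8.67e-05), or 7.85-fold if the deposited values are natural logs. The 3 ratios share that control pool and the dyes, so the interval covers neither the control's spread nor a dye effect. Vcam1 ranked 11 from the top of 16871 genes and was 1 of 101 (0.599%) called higher by 2-fold or more. Icam1, the ligand of LFA-1 and Mac-1, had 0.70, 0.37 and 0.45. Every pool was positive and the lowest Vcam1 pool exceeded the highest Icam1 pool, with a mean of 0.50 ± 0.17 for Icam1 (1.42-fold, adjusted p = 0.0033). Vcam1 exceeded Icam1 by 1.56 ± 0.13 in log2 ratio on these arrays, but on the cDNA arrays the difference was 0.49, -0.61 and 1.93 (0.60 ± 1.27), with Icam1 the higher in pool 2. Icam2 had 0.08, 0.14 and -0.11, with pools on both sides of 0, a mean of 0.04 ± 0.13 and a 95% interval of -0.11 to 0.18 (adjusted p = 0.640).

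The selectins differed too. Sele, which is made on activated endothelium, had log2 ratios of 0.27, 0.60 and 0.35, all positive with pool 2 the highest, and rose by 1.32-fold (0.41 ± 0.17, adjusted p = 0.0066). Its mean lay at the edge of the range that holds 95% of the chemosensory receptors (0.41), so the size of its change was not beyond that of genes of another tissue. Selp, stored in granules of endothelium and platelets, had -0.08, -0.18 and -0.07, all slightly negative, and was not called (-0.11 ± 0.06, 95% interval -0.22 to -0.00 before adjustment, adjusted p = 0.0903). Sele exceeded Selp in every pool, by 0.35, 0.78 and 0.42.

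Among the integrin subunits, 1 rose, 2 fell and 2 were not called. Itgb2, the beta chain that LFA-1 and Mac-1 share, had log2 ratios of 0.72, 0.67 and 0.50 (0.63 ± 0.11, 1.55-fold higher, adjusted p = 9.30e-04), high in every pool. Itgam, the alpha chain of Mac-1 on monocytes, granulocytes and many macrophages, had -0.38, -0.43 and -0.49, low in every pool (-0.43 ± 0.06, 1.35-fold lower, adjusted p = 0.0014). Itgal, the alpha chain of LFA-1, had -0.00, -0.12 and -0.08 and was not called (-0.07 ± 0.06, 95% interval -0.18 to 0.04, adjusted p = 0.248). The shared beta chain lay above both alpha chains: Itgb2 exceeded Itgam by 1.10, 1.09 and 0.99 in the 3 pools and Itgal by 0.72, 0.79 and 0.58. The VLA-4 subunits stayed close to 0 or below it. Itga4 had -0.05, 0.18 and -0.17, with pools on both sides of 0 (-0.02 ± 0.18, 95% interval -0.19 to 0.16, adjusted p = 0.863), and Itgb1, the beta chain that many tissues use to hold matrix, had -0.29, -0.40 and -0.18 and fell by 1.22-fold (-0.29 ± 0.11, adjusted p = 0.0087). Of the 10 members, 4 (Vcam1, Icam1, Itgb2 and Itgam) lay beyond the range of 95% of the chemosensory receptors, and Vcam1 lay beyond the largest called receptor (0.92) but not beyond the 1 receptor that was not called (2.08). Many other genes lay beyond that range too, since Icam1 ranked 537 from the top and Itgam 563 from the bottom of 16871 genes. The share of all genes beyond it was not counted.

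**Figure D2:**
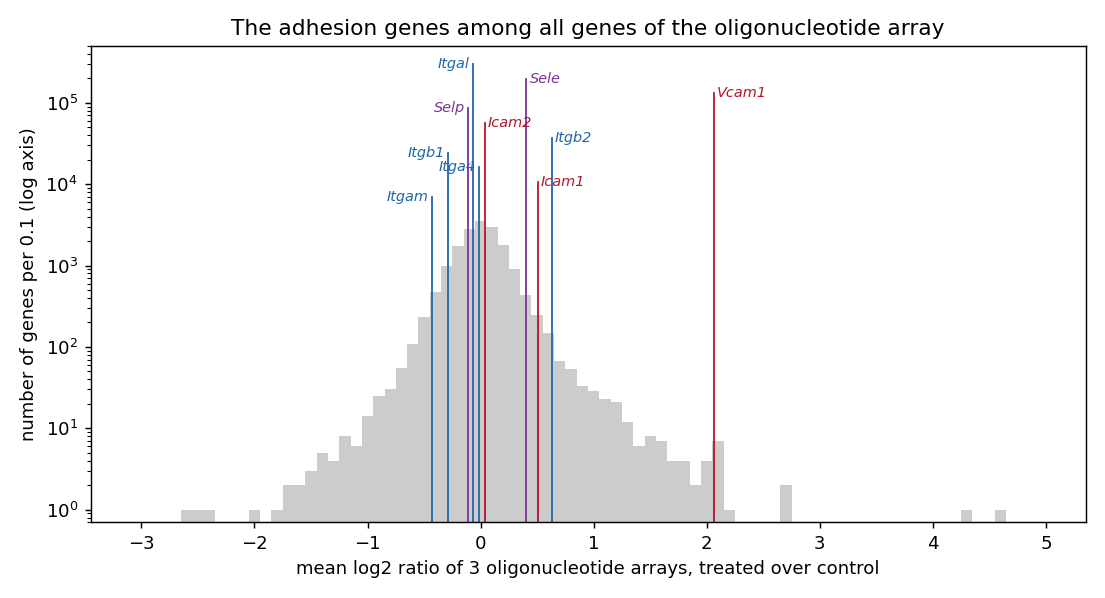
Number of genes (log axis) by mean log2 ratio of the 3 oligonucleotide arrays in bins of 0.1, with a line for each adhesion gene coloured by role (red ligands, purple selectins, blue integrins; line heights only separate the labels). Vcam1 at 2.06 lies in the sparse upper tail, and the other 9 genes lie between -0.43 and 0.63.

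The ligands were then compared with their integrins within each pool, by subtracting the integrin's log2 ratio from the ligand's. Over 12 ligand and integrin combinations (8 on the oligonucleotide and 4 on the cDNA arrays) an exact sign-flip permutation test over 3 pools cannot give a two-sided p below 0.25, so no combination could pass a threshold. Vcam1 exceeded Itga4 by 2.27, 1.89 and 2.08 in the 3 pools (2.08 ± 0.19, exact permutation p = 0.25, adjusted p = 0.300) and Itgb1 by 2.50, 2.46 and 2.08 (2.35 ± 0.23, the same exact p). In each pool the ratio of Vcam1 lay above that of both chains of its receptor. Icam1 exceeded Itgal by 0.57 ± 0.11 and Itgam by 0.94 ± 0.14, positive in 3 of 3 pools each, but not Itgb2, where the pools lay at -0.02, -0.30 and -0.05 (-0.12 ± 0.15). Icam2 lay below Itgb2 by 0.64, 0.53 and 0.61 in pools 1, 2 and 3 (mean -0.59 ± 0.06), above Itgam by 0.47 ± 0.09, and within its spread of Itgal (0.11 ± 0.14, positive in 2 of 3 pools, exact permutation p = 0.5, adjusted p = 0.545). As a description with no test, the mean of the 3 ligands was 1.0, 0.86 and 0.75 in the pools and that of the 5 integrin subunits -0.00, -0.02 and -0.08. The ligands ran from 0.04 (Icam2) to 2.06 (Vcam1), and Itgb2 at 0.63 lay above both Icam1 and Icam2.

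**Figure D3:**
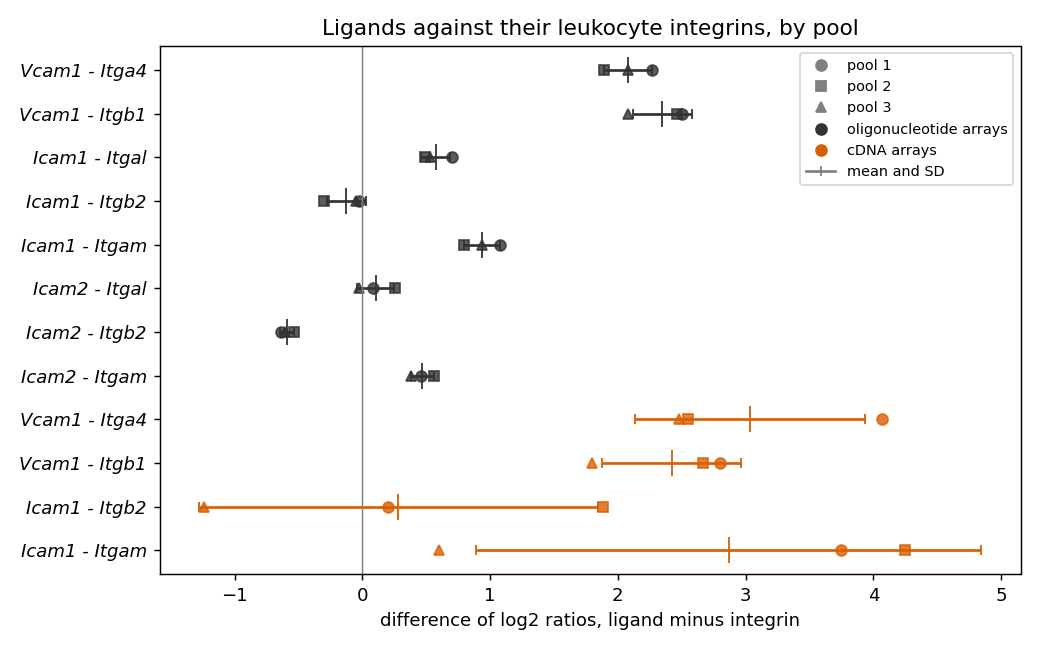
Difference of log2 ratios, ligand minus integrin (horizontal axis), for each known pairing, with symbols for the 3 pools, black for oligonucleotide and orange for cDNA arrays, and bars for the mean and SD. Vcam1 exceeds its VLA-4 chains by 1.80 or more in every pool on both array types, while Icam1 minus Itgb2 on the cDNA arrays runs from -1.24 to 1.88.

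The cDNA arrays read the same 3 pools with other probes and direct labelling. There limma called 0 of 5011 genes (0% in either direction, 0% higher and 0% lower), with 1518 at an unadjusted p under 0.05, and 1 gene was called when each gene's variance was taken from its own 3 values. Of the 7 adhesion genes with a value on all 3 arrays, 0 were called and 3 had an unadjusted p under 0.05. Vcam1 had log2 ratios of 2.65, 2.47 and 1.96, all high (2.36 ± 0.36, adjusted p = 0.0984). Itgb2 had 1.96, 1.20 and 1.27, also all positive (1.48 ± 0.42, adjusted p = 0.0984), and Itgam had -1.59, -1.17 and -0.57, all negative (-1.11 ± 0.51, adjusted p = 0.110). All 6 arrays had 1 sign for these 3 genes and also for Icam1 (positive) and Selp (negative). In pool 3, however, Icam1 lay at only 0.03 on the cDNA array, and Selp at -0.10 there and -0.07 on the oligonucleotide array. The 2 arrays of a pool read the same RNA, and how many of all genes keep 1 sign was not counted.

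The other members were as follows on the cDNA arrays. Icam1 had 2.16 and 3.08 in pools 1 and 2 but 0.03 in pool 3 (1.76 ± 1.56, adjusted p = 0.181), and without pool 3 its mean was 2.62. Selp had -2.24, -0.49 and -0.10 (-0.94 ± 1.14), where pool 1 carries most of the mean, which was -0.30 without it. Itga4 had -1.42, -0.08 and -0.52 (-0.67 ± 0.68), with -0.30 when pool 1 was left out. Itgb1 had -0.15, -0.20 and 0.16 (-0.06 ± 0.20), on both sides of 0. Icam2 (-0.06 and -0.41 in pools 1 and 3) and Itgal (1.70 and 0.13) were listed at 0 in pool 2 and stayed out of the fit; with 2 arrays allowed they averaged -0.24 (adjusted p = 0.517) and 0.92 (adjusted p = 0.354). On these arrays Vcam1 exceeded Itga4 by 4.07, 2.55 and 2.48 and Itgb1 by 2.80, 2.67 and 1.80, and Itgb2 exceeded Itgam by 3.55, 2.37 and 1.84.

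When the 2 arrays of a pool were averaged, 5.1% of 4702 genes were called (2.47% higher, 2.64% lower), and of 7 members 2 were called, both higher. Vcam1 averaged 2.43, 2.27 and 1.93 (2.21 ± 0.25, 4.63-fold, limma adjusted p = 0.0394) and Itgb2 1.34, 0.93 and 0.88 (1.05 ± 0.25, 2.07-fold, adjusted p = 0.0408). Itgam, at -0.98, -0.80 and -0.53, just missed the threshold (-0.77 ± 0.23, adjusted p = 0.0509), and Icam1 (1.13 ± 0.79, adjusted p = 0.103) did not pass. With the pool as a random block over the 6 arrays, Itgam was called as well (adjusted p = 0.0134) and calls over all genes went from 116 higher and 124 lower to 534 and 483, at an estimated correlation within pools of -0.32. That fit had no term for array type, and a negative correlation counts the 2 arrays of a pool as more than independent repeats, so its added calls are less secure. Leaving out pool 1 or pool 2 ended both calls of members and every other call (0 genes), as did keeping values of 0, allowing 2 of 3 pools or using each gene's own variance, while leaving out pool 3 kept both and added Icam1 (1.58) and Itgam (-0.89).

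Whether the size of the ratio differed by array type depended on the fit. In the fit of the oligonucleotide minus the cDNA ratio without a pool block, which ignores that both types read the same pools, 11.4% of 4702 genes were called. Of the 7 members 0 were called, and 2 had an unadjusted p under 0.05, which reads against 1635 of all 4702 genes. Itgb2 had 0.63 on the oligonucleotide and 1.48 on the cDNA arrays (difference -0.85, 95% interval -1.42 to -0.28, adjusted p = 0.0686), and Itgam had -0.43 and -1.11 ( difference 0.68, adjusted p = 0.137). Vcam1 differed by -0.30 (95% interval -0.82 to 0.22, adjusted p = 0.338). With the pool as a fixed block, 0 genes were called. Without pool 3, 1077 genes were called, among them Icam1 (-2.09) and Itgam (0.98), and without pool 1 or pool 2, 0.

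Other genes of the adhesion pathway were read on the oligonucleotide arrays from lists chosen with earlier results of these data known, beside 22% higher and 21.4% lower among all genes and a median of 0.00. Of 18 measured partners of the selectins, 6 were higher and 3 lower, with a median of 0.02. Selplg, the leukocyte ligand of the selectins known as PSGL-1, had 0.89, 0.69 and 0.68 (0.76 ± 0.12), Cd34, a sialomucin of vessels and progenitors, 0.60 ± 0.04, and Glycam1, a mucin of lymph node venules, 0.54 ± 0.17. The lower genes were the sialyltransferases St3gal4 (-0.64 ± 0.13), which helps to build selectin ligands, and St3gal6 (-0.41 ± 0.02), and Madcam1, a mucosal ligand of alpha4beta7 (-0.27 ± 0.05). Of 23 other endothelial and junction genes, 3 were higher and 6 lower, with a median of -0.03. Sirpa, the receptor of CD47 on myeloid cells, rose by 0.34 ± 0.08 and the junction gene Jam2 by 0.14 ± 0.05, with Mcam at 0.14 ± 0.02, while Aoc3, the amine oxidase VAP-1, fell (-0.55 ± 0.23), as did F11r (-0.30 ± 0.03), which encodes JAM-A, and Cd226 (-0.27 ± 0.05).

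Genes of other integrins and of integrin activation were higher more often than lower. Of 20 integrin subunits that are not among the 10 genes, 10 were higher and 1 lower, with a median of 0.18. Itgax, the CD11c alpha chain that also pairs with Itgb2, had 1.58, 1.19 and 1.25, all high (1.34 ± 0.21, 2.53-fold, adjusted p = 4.05e-04), and exceeded Itgb2 in every pool, by 0.71 ± 0.17. Itga9, another alpha chain that binds VCAM-1 with Itgb1, rose by 0.57 ± 0.11 and Itgb5 by 0.48 ± 0.14, while Itgb7, the other beta partner of Itga4, fell (-0.19 ± 0.14). Among the alpha chains named here that pair with Itgb2, Itgax thus rose, Itgam fell and Itgal was not called on the oligonucleotide arrays. Itgax was not among the 7 genes of this list that were fitted on the cDNA arrays. Of 26 genes that switch integrins on or tie them to actin, 13 were higher and 0 lower (median 0.13). Fermt3, kindlin-3 of blood cells, led them at 0.95 ± 0.19, with 1.17, 0.79 and 0.89, followed by Skap2 (0.50 ± 0.12), an adaptor of myeloid cells, and Coro1a (0.48 ± 0.25), an actin regulator of leukocytes.

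Genes known to control the adhesion proteins, and genes of their shedding, were read the same way. Of 30 cytokine, receptor and regulator genes, 12 were higher and 6 lower (median 0.10). Jun, a subunit of AP-1, rose by 0.88 ± 0.19, Irf1, which acts on the Vcam1 promoter with NF-kB, by 0.61 ± 0.22, and Ifngr1 by 0.42 ± 0.13. Il1b, a cytokine that induces the endothelial ligands, fell in every pool (-1.57, -1.99 and -1.58; -1.71 ± 0.24), and so did Klf2 (-0.88 ± 0.07) and Klf4 (-0.36 ± 0.24), transcription factors known to hold endothelium quiescent. Of 9 genes of shedding (proteases, with the protease inhibitor Timp3 and the ADAM17 regulator Rhbdf2), 5 were higher and 0 lower (median 0.18), with Adam8, a leukocyte protease, at 2.21, 1.66 and 1.26 (1.71 ± 0.48), Adam17, which releases several adhesion proteins, at 0.36 ± 0.09, and the neutrophil elastase gene Elane at 0.35 ± 0.22. On the cDNA arrays 0 genes of these 6 lists were called, as for all genes there. Their medians on those arrays were 0.81 (selectin partners, 8 genes), -0.10 (endothelial and junction genes, 10), -0.44 (other integrins, 7), 0.43 (integrin activation, 11), 0.04 (cytokines and regulators, 16) and -0.15 (shedding, 2), beside 0.06 for all genes, so the other integrins and the shedding genes had medians of opposite sign on the 2 array types. Adam17 was negative in all 3 pools on the cDNA arrays (-0.49, -0.54 and -0.23; -0.42 ± 0.17, adjusted p = 0.154), and Glycam1 had a mean of -0.73 ± 1.41 there, both opposite in sign to the oligonucleotide arrays. Other genes of these lists, called higher on the oligonucleotide arrays, were also negative there: Ptk2b (-0.52 ± 0.12), Itgav (-0.44 ± 0.40) and Itga2b (-0.60 ± 0.97). Ikbkb, Cdh5 and Tek were called lower on the oligonucleotide arrays and had positive cDNA means.

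Markers of the cells that carry the adhesion proteins were read in the same pools, and their part in the members' ratios was not tested. The counts are on the oligonucleotide arrays and read against 22% higher and 21.4% lower among all genes. Of 15 endothelial markers 0 were higher and 4 lower (median -0.04, range -0.24 to 0.16), including Oit3 (-0.24 ± 0.04) and Tek (-0.18 ± 0.07). Of 13 macrophage markers 10 were higher and 3 lower (median 0.95, with pool medians of 1.11, 0.60 and 0.88), from Gpnmb (4.63 ± 0.07) and Trem2 (4.31 ± 0.19) to Cd163 (-1.77 ± 0.13) and Marco (-1.24 ± 0.76). Of 13 monocyte and neutrophil markers 9 were higher and 1 lower (median 0.35), led by S100a9 (2.0 ± 0.42) and S100a8 (1.33 ± 0.29), with Fn1 at -0.16 ± 0.08. The monocyte genes Ccr2 (0.08 ± 0.23) and Ly6c2 (-0.16 ± 0.12) were not called, nor was the neutrophil gene Csf3r (-0.03 ± 0.12). Lymphocyte markers numbered 6 higher and 1 lower of 12 (median 0.14; Cd79b 0.53 ± 0.21, Ms4a1 0.38 ± 0.02, Ncr1 -0.25 ± 0.15), and platelet markers 4 higher and 1 lower of 7 (median 0.18; Ppbp 0.93 ± 0.22, Pf4 0.66 ± 0.28, Gp5 -0.17 ± 0.07). Stellate cell markers were higher in 8 of 10 (median 0.53; Col3a1 0.85 ± 0.05, Col1a2 0.57 ± 0.19) and hepatocyte markers lower in 7 of 12 with 0 higher (median -0.41; Tat -1.23 ± 0.26, Tdo2 -0.91 ± 0.13). On the cDNA arrays 0 of these markers were called, and the medians were -0.01 for endothelium, 1.27 for macrophages, 0.50 for monocytes and neutrophils, -0.29 for lymphocytes, 0.01 for platelets, 0.39 for stellate cells and -0.34 for hepatocytes. Of the markers named, Tek (0.08 ± 0.15), Cd79b (-1.12 ± 1.58) and Ms4a1 (-0.64 ± 0.47) had cDNA means of the opposite sign to their oligonucleotide means. Among the other called markers, so did C1qa (-0.23 ± 0.30), Cdh5, Cd3d, Cd8a, Itga2b and the stellate cell markers Acta2 (-0.20 ± 0.04), Dcn (-0.04 ± 0.18) and Des (-0.18 ± 1.07). The remaining called markers that were fitted on the cDNA arrays kept their sign.

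**Figure D4:**
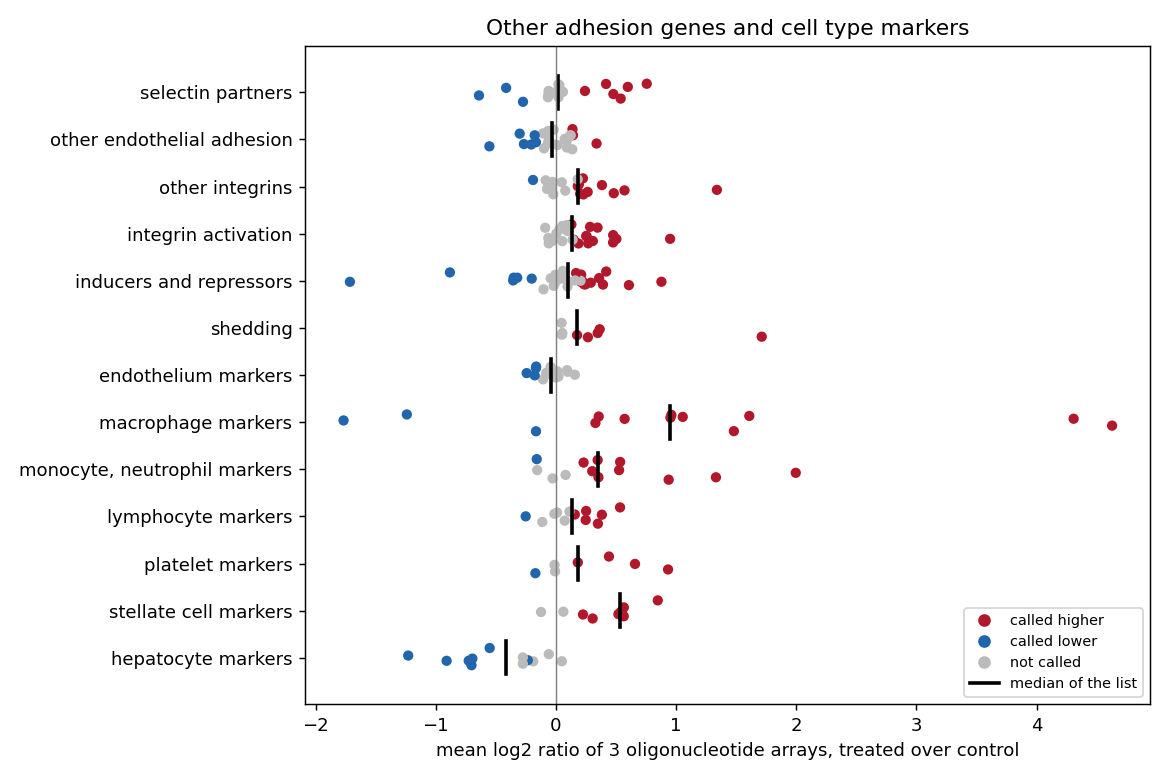
Mean log2 ratio of 3 oligonucleotide arrays (horizontal axis) for each measured gene of 6 adhesion lists and 7 cell type marker lists; red points were called higher, blue lower and grey not called by limma at an adjusted p under 0.05, and black bars are list medians. Endothelial markers lie between -0.24 and 0.16 with 0 of 15 higher, whereas 10 of 13 macrophage markers are higher.

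The genes with ratios most like each member were found by the root mean square difference over the arrays that measured it. For Vcam1 over 6 arrays and 4702 genes these were Ctss, a lysosomal protease of macrophages (difference 0.13), Lpl, lipoprotein lipase (0.22), and Lyz2, the lysozyme of myeloid cells (0.27). For Itgb2 they were Anxa1 (0.20), Hmox1 (0.21) and C3ar1 (0.22), for Icam1 Fcgr1 (0.20), Spata6 (0.23) and Hsd17b4 (0.24), and for Itgam Pfdn6 (0.15), Pdap1 (0.16) and Sephs2 (0.16). Itgb1 was nearest to Rbm4b (0.083), Smyd5 (0.086) and Hgd (0.086), Itga4 to Efna5 (0.11), Zfp42 (0.18) and Abcb1a (0.19), and Selp to Psg-ps1 (0.14), Chrnb1 (0.16) and Top1 (0.21). Sele, measured on 3 arrays, was nearest to Svs4, Pard3 and Pax8 (0.013 to 0.030), and Icam2 and Itgal, near 0 like most genes, had many close neighbours, the nearest being Hsd3b6, Cpt2 and Ascl2 for Icam2 and Morn5, Esf1 and Dctn5 for Itgal (0.004 to 0.017 in all). Likeness of ratios over 3 pools that share 1 control pool is a description only.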

How the data were processed

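The 6 deposited columns hold 1 log2 ratio per feature, treated pool over control pool, made by the authors; its log base, direction, normalization, background correction and filters, and how mice were assigned to pools, were not given in the sources used here. Direction was read as treated over control from titles and dyes, and every sign rests on that reading. Values reach 6.34 in size, past the log10 limit of scanner intensities (4.82), so they were read as log2; a natural log was not excluded. Per the labels' protocols, 0.5 ug of RNA was amplified for the oligonucleotide arrays and 10 ug labelled directly for the cDNA arrays.

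Exact zeros became missing, each array was centred on its non-zero median, and features naming 1 gene were averaged per gene (of 22575 oligonucleotide features 18658 named 1 gene, 30 several and 3887 none; of 13482 cDNA features 7410, 438 and 5634). Names came from the platform annotation, updated by gene ID through RefSeq (18445 and 7332 features matched). limma 3.58.1 (lmFit, eBayes) in R 4.3.3 tested the mean ratio of 3 pools against 0 over all genes, with Benjamini-Hochberg adjustment and a threshold of 0.05. The control pool is 1 sample, so the tests leave out its spread, and since no dyes were exchanged, dye and treatment effects cannot be told apart. Pool numbers pair the array types because each RNA was split; deviations of same-numbered arrays correlated at 0.06, 0.07 and 0.07 across genes. Fits were also run on simulated data with independent noise in each pool. That simulation had no shared control pool and no dye effect, so it did not test errors from either. Promoters were searched with Python 3.11.15 and plotted values drawn with matplotlib 3.10.9.

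Members and lists were chosen with earlier results of these data known. Text names all 10 members; from each adhesion list the 3 highest and 3 lowest called genes on the oligonucleotide array; from each cell type list the 2 highest and 2 lowest; and the 3 genes most like each member. Itgax against Itgb2, and other subunit differences, were chosen after their values were seen. Further list genes, named as not called or for their sign on the cDNA arrays, were also chosen after their values were seen.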

Additional observations from a re-analysis of the deposited data

How the results depend on the processing

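With 3 pools and 1 control pool, precision is limited by the number of pools, and signal over background is unknown. On the oligonucleotide arrays the 6 member calls were kept with zeros kept, without centring, with centring on named features, with arrays scaled to one spread, with a robust prior, and without any 1 pool. The largest feature per gene and 2 of 3 arrays allowed could not move a member's ratio there, since each has 1 feature and a value on all 3 arrays. Without the shared prior 0 members were called higher and 0 lower there (24 and 16 genes, against 3710 and 3608; Vcam1 adjusted p 0.0681), and the cDNA arrays had 1 gene higher. Leaving out a pool left 1996 to 3180 genes higher and 2029 to 3064 lower on the oligonucleotide arrays. Itga4 ran from -0.113 to 0.061, with 0.0016 without pool 1, and Icam2 from -0.014 to 0.107 there, changing sign, and Itgb1 on the cDNA arrays from -0.175 to 0.005.

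For both array types together the 116 higher and 124 lower genes became 0 and 0, and the 2 higher members 0, with zeros kept, without the shared prior, or with 2 of 3 pools allowed. Scaling the arrays gave 274 and 272 genes with 1 member lower (Itgam), and the pool as a random replicate block 534 and 483 with 1 member lower. Leaving out a pool gave 0 to 235 higher and 0 to 138 lower genes, 0 to 3 members higher and 0 to 1 lower. The 537 genes called as different between array types without a pool block became 0 with the pool as a fixed replicate block and 0 to 1077 without 1 pool, with 0 to 2 members. Icam1 minus Itgb2 on the cDNA arrays ran from -0.52 to 1.04 without 1 pool; the other 11 differences kept their sign. The cause of these changes was not tested.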
